A study of Mus musculus with 12 samples.

Results

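Loss of Lin28a alone was compared with wild type in mouse pluripotent stem cells, using the 6 arrays of these groups among the 12 of the series: 3 of Lin28a loss and 3 of wild type. Members were the genes above background (detection p under 0.01) on all 3 arrays of at least 1 of both groups, which gave 9449 genes of 30854 entries in the gene-level table. The Lin28a-loss arrays all carry the line name AK01 and the wild-type arrays the line name wt2, so line and genotype cannot be told apart. The other groups are loss of both paralogs (line DK05) and loss of Lin28b alone (line BK06), with 3 arrays each. They served for comparison, and since all 12 arrays were normalized and fitted together, these groups also enter the estimate of spread. Each of them is also a single line, so the same limit holds there. All cells were kept in serum medium with Lif; the tissue label says embryonic stem cells, whereas the series text speaks of iPS cells for the controls. How the genes were inactivated is not given in the sources used here. Nothing says that the 3 samples of a group came from separate cultures, so the p-values measure only the spread between these samples, which may be technical.

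LIN28A and its paralog LIN28B are RNA-binding proteins. In the cytoplasm or nucleus they hold back the maturation of let-7 microRNAs, by binding the terminal loop of the precursor and recruiting an enzyme that adds uridines to its end, and they also bind many messenger RNAs. In pluripotent cells let-7 is kept low, and it accumulates on differentiation, when it represses growth and embryonic genes.

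Mature let-7 was not read by these arrays, so its sequences are given here only to show what LIN28 acts on. Of 11 mouse let-7 family members in RefSeq (GRCm38.p6), 10 share the seed GAGGUAG at bases 2 to 8, here in capitals.
let-7a-5p: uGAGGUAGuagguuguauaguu
let-7b-5p: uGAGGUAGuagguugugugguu
let-7d-5p: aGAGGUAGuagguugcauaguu
let-7g-5p: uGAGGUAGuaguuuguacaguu
miR-98-5p: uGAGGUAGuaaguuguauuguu
These 5 differ outside the seed, and let-7d also at its first base. The tetramer GGAG in the precursor's loop is the letters that the LIN28 zinc knuckles are known to bind, and 8 of the 11 hairpins hold it between the arms, among them let-7g (chr9:106178840-106178927, plus strand, GRCm38.p6), with GGAG in capitals.
Mirlet7g: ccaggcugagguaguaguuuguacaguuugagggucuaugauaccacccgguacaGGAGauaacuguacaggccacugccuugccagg
The hairpins of let-7b, of the second let-7c copy and of miR-98 do not have these letters there.

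Mean raw intensity was 401.0 to 542.7 per Lin28a-loss array and 423.8 to 596.7 per wild-type array, and 10187 to 10773 entries were above background in Lin28a loss, against 9377 to 10143 in wild type. Both groups lie on 1 chip, with the 3 arrays of each group in neighbouring positions. Some bright entries miss the detection threshold: Thy1, a surface protein of fibroblasts and other cells, read 8.23, 8.22 and 7.92 in Lin28a loss, against 6.84, 6.68 and 6.72 in wild type, and passed on no array. Missing it therefore does not by itself mean a dim signal. All levels below are normalized log2 intensities, which rank the arrays for 1 gene and not the genes against each other.

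The targeted gene was checked first. Lin28a read 5.69, 5.71 and 5.57 in Lin28a loss, against 8.07, 7.97 and 7.86 in wild type. The groups lie well apart, and every array was still above background. Lin28a fell by 2.31 ± 0.11 (SE, n = 3 arrays per group here and throughout) on the log2 scale (adjusted p = 1.27e-08), a 4.95-fold difference. The same gene averaged 5.48 ± 0.17 (SD) in double loss and 7.03 ± 0.17 in Lin28b loss. Lin28b, by either of its entries, was not above background on all 3 arrays of any group and was not tested. Its brighter entry read 4.72 ± 0.17 (SD) in Lin28a loss and 4.67 ± 0.06 in wild type.

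Markers of pluripotent cells were above background in both groups, 10 of 10 on every array. Pou5f1, the transcription factor OCT4, read 12.59, 12.66 and 12.43 in Lin28a loss, against 12.86, 12.63 and 12.55 in wild type. Of the 10 markers none rose and 3 fell, Zfp42 by 2.10, Utf1 by 0.67 and Sox2, a partner of OCT4, by 0.63. Nanog and Esrrb, further factors of the naive network, had log2 differences of -0.05 and 0.09 (adjusted p = 0.907 and 0.491). Summed over the 10 markers, linear levels ran from 46400 to 49400 in Lin28a loss and from 51000 to 53000 in wild type. Of 10 fibroblast markers, which would report feeder cells, 1 was above background on all arrays of both groups, the fibronectin gene Fn1. The collagen gene Col1a1 averaged 4.58 in Lin28a loss and 4.64 in wild type, at the floor of the scale. Thy1, also among the 10, passed on no array but read higher in Lin28a loss, as given above. Summed levels of the 10 ran from 988 to 1190 in Lin28a loss and from 1410 to 1610 in wild type.

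Markers of other cell types changed in part. All 7 trophoblast markers tested fell (summed level 1880 to 2090 in Lin28a loss, against 3000 to 3300 in wild type), among them the keratins Krt7, Krt8 and Krt18, while Elf5 and Hand1 were above background in neither group. Of 10 primitive endoderm markers 3 were tested and 2 of these, Sparc and Col4a1, rose (sum 2480 to 2790, against 1630 to 1900 in wild type), with Gata4, Sox17 and Foxa2 above background in neither group. For 8 neuroectoderm markers the sum was 1110 to 1680 in Lin28a loss, against 108 to 128 in wild type; Olig1 and Nes rose, and Sox1, Pax6, Tubb3, Neurog1 and Olig2 were above background in neither. Of 8 germline markers 2 were tested: Piwil2, of the piRNA pathway, rose by 0.91 and Dppa3 fell by 1.31. In bulk samples, fewer cells of a type and less RNA per cell cannot be told apart, and the part of such cells in any result was not tested.

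Across all genes tested, 3548 of 9449 changed (37.5%, adjusted p under 0.05): 1794 rose (19%) and 1754 fell (18.6%). At least 2-fold changes numbered 523 (5.53%), with 367 higher (3.88%) and 156 lower (1.65%), and at least 4-fold ones 56 higher and 18 lower. The median size of a called change was 0.55 on the log2 scale, so most were modest. Under median scaling in place of quantile normalization 1374 genes were called (14.5%), 972 higher (10.3%) and 402 lower (4.25%), and 1346 of them were called the same way in both. No gene was called in opposite directions. Among the 8233 genes above background on all 6 arrays 2890 were called (35.1%), 1318 higher (16%) and 1572 lower (19.1%). The 3 values of each group did not overlap for 4183 genes (44.3%).

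Of 9449 genes tested, those seen on all arrays of 1 group and on no array of the other were mostly of Lin28a loss: 319 there, against 36 in wild type. Of these, 277 were called higher and 33 called lower. Their direction was set by the choice, which also asked for a difference that way, so these calls are no separate evidence. Lin28a-loss arrays also had more entries above background. Among the 277, 148 (53.4%) were on no array of double loss or Lin28b loss either, and 54 (19.5%) were above background on all 3 arrays of the double-loss line. Of the 33 wild-type genes, 15 were above background on all 3 double-loss arrays.

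Predicted genes and clones, some of which changed more than the genes below, were left out of the choice of named genes. The largest rise among the other genes seen on all 6 arrays was that of Tomm22, a receptor of the protein import pore in the outer mitochondrial membrane. It read 9.56, 9.47 and 9.55 in Lin28a loss, against 6.47, 6.68 and 6.74 in wild type, a log2 fold change of 2.90 ± 0.09 (adjusted p = 2.75e-10). Of 41 genes of mitochondrial ribosome and import 6 rose, Tomm22 included, and 6 fell. The import genes Timm10 and Timm50 rose by 0.38 and 0.41, and Tomm40, the pore itself, fell by 0.50; of the genes that rose or fell only Tomm22 kept its call under median scaling. Fastkd3, of a family of mitochondrial RNA-binding proteins, read 8.53, 8.69 and 9.07 in Lin28a loss, against 6.23, 5.85 and 5.85 in wild type (2.79 ± 0.14, adjusted p = 1.45e-08). Mfap1b, a copy of a spliceosome gene, rose by 2.64 ± 0.10, with all 3 Lin28a-loss arrays above 9.4 and all wild-type arrays at 7.04 or below. Mfap1b has a near-identical copy, so which of them was read is uncertain.

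The next rises were of genes with varied roles. Dhrs7, a short-chain dehydrogenase, read 10.43, 10.13 and 9.92 in Lin28a loss, against 7.80, 7.61 and 7.35 in wild type (2.57 ± 0.15, adjusted p = 6.56e-08). Sgpp1, which removes the phosphate of sphingosine-1-phosphate, rose by 2.15 ± 0.13. Sdc4, the heparan sulfate proteoglycan syndecan-4, read 10.40, 10.47 and 10.42 in Lin28a loss, against 8.57, 8.04 and 7.82 in wild type, the wild-type arrays being the more spread (2.29 ± 0.16, adjusted p = 2.70e-07). Fez1, an adaptor of kinesin transport, rose by 2.38 ± 0.08, and Camk2n1, an inhibitor of the kinase CaMKII, by 2.22 ± 0.17. Lockd, a noncoding RNA transcribed next to Cdkn1b, rose by 2.29 ± 0.17 and Hormad2, of the meiotic chromosome axis, by 2.21 ± 0.17.

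Several genes were at background in wild type. Olig1, a transcription factor of oligodendrocyte precursors, read 9.96, 10.37 and 10.62 in Lin28a loss, against 4.78, 4.79 and 4.72 in wild type. That is at least 25.2-fold higher (adjusted p = 1.96e-11), where the bound sets the Lin28a-loss mean against the dimmest single-probe entry above background on each wild-type array, or the gene's own signal if higher; entries averaged over several probes can pass detection at dimmer signals. Pdrg1, a gene regulated by p53 and DNA damage, read 9.13, 9.17 and 8.93, against 4.46, 4.48 and 4.51 in wild type, at least 10.6-fold higher (adjusted p = 1.06e-12). The homeobox gene Obox6, of the oocyte-specific family, was at least 8.85-fold higher (adjusted p = 1.75e-10). Abhd16a, H2-Bl and Wdr46, whose bounds were 15.2-, 10.3- and 8.92-fold, are described with chromosome 17.

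Uap1 had the largest fall among named genes seen on all 6 arrays. It makes UDP-N-acetylglucosamine, the sugar donor of N- and O-glycosylation, and read 6.45, 6.43 and 6.61 in Lin28a loss, against 9.94, 9.39 and 9.52 in wild type (-3.12 ± 0.17, adjusted p = 2.94e-08). The rest of the hexosamine and N-glycan list did not follow: of 22 genes 6 rose and 3 fell, and under median scaling Uap1 alone remained called. Meg3, the maternally expressed noncoding RNA of an imprinted locus, read 6.06, 5.95 and 5.68 in Lin28a loss, against 8.36, 8.94 and 8.92 in wild type (-2.84 ± 0.21, adjusted p = 5.69e-07). Ccdc3, a secreted coiled-coil protein, fell by 2.62 ± 0.11. Cd59a, which protects cells from complement, fell by 1.83 ± 0.11, the pseudogene Rnf170-ps by 1.89 ± 0.13, and the X-linked homeobox gene Rhox9, of placenta and gonad, by 1.80 ± 0.19.

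Other genes were lost to background in Lin28a loss. Sfi1, which encodes a centrin-binding protein of the centrosome, read 4.68, 4.67 and 4.62 in Lin28a loss, against 8.55, 8.35 and 8.26 in wild type, at least 7.77-fold lower (adjusted p = 1.96e-11). Calr4, a relative of the endoplasmic reticulum chaperone calreticulin, read 4.75, 4.79 and 4.71, against 8.0, 7.48 and 7.26 in wild type, at least 4.45-fold lower (adjusted p = 1.83e-08). Sh3rf2, a ubiquitin ligase of the POSH family, was at least 3.11-fold lower, Rhox6, which neighbours Rhox9 in the Rhox cluster, at least 2.68-fold, and Arhgap30, a GTPase-activating protein, at least 2.60-fold.

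**Figure D1:**
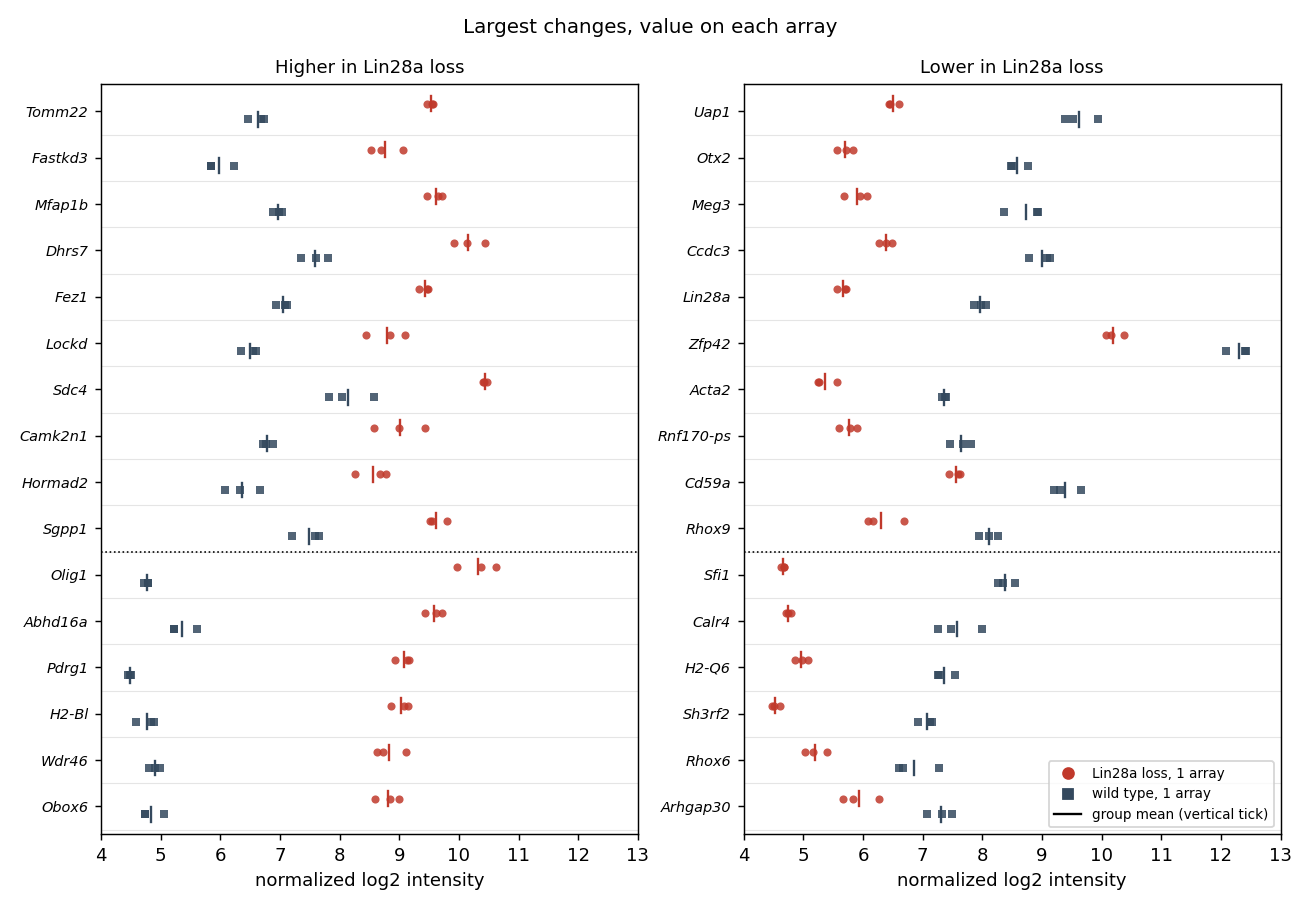
Normalized log2 intensity (horizontal) on each array for the genes with the largest changes, predicted genes and clones left out, Lin28a loss (red circles) above wild type (dark squares) in each row, with a vertical tick at each group mean; genes below the dotted line were above background on all 3 arrays of 1 group and on none of the other. In no row do the 2 groups overlap, which the choice required of the genes above the dotted line. Tomm22 lies near 9.5 in Lin28a loss, and Olig1 reaches 10.62 there against 4.79 at most in wild type.

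Naive pluripotency genes split. Of 28 core and naive genes tested 9 fell and 3 rose, against 18.6% and 19% of all genes. The median log2 fold change was -0.20, against -0.02 over all genes, and under median scaling 5 fell and 1 rose. Zfp42, the naive marker REX1, read 10.15, 10.37 and 10.07 in Lin28a loss, against 12.08, 12.42 and 12.40 in wild type (-2.10 ± 0.11, adjusted p = 2.91e-08). The groups lie apart. Nr5a2, a nuclear receptor that can act on the Oct4 promoter, read 6.53, 6.85 and 7.03 in Lin28a loss, against 8.07, 8.21 and 8.19 in wild type (-1.36 ± 0.13, adjusted p = 3.83e-06). Dppa3, which guards maternal methylation marks, fell by 1.31 ± 0.14 and Utf1, a chromatin factor, by 0.67 ± 0.12. Klf4 and Tfcp2l1, both naive factors, had differences of 0.09 and 0.15 (adjusted p = 0.634 and 0.217). Jam2, a junction adhesion molecule kept on the list as a stem cell surface gene, rose by 1.81 ± 0.18, with 8.40 on the highest Lin28a-loss array and 6.19 on the highest wild-type array.

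Of 13 genes of the primed, post-implantation state tested 5 fell and none rose, against 18.6% and 19% of all genes. The median was -0.31, and 4 fell under median scaling. Otx2, a homeobox factor of the epiblast and forebrain, read 5.72, 5.56 and 5.83 in Lin28a loss, against 8.77, 8.48 and 8.49 in wild type (-2.88 ± 0.13, adjusted p = 4.32e-09). Zic2, a zinc finger factor, read 4.74, 4.83 and 4.89, against 5.90, 5.92 and 5.91 in wild type (-1.09 ± 0.13), with 1 Lin28a-loss array above background. The other fallers were the de novo methyltransferase Dnmt3b (-0.46 ± 0.10, not called under median scaling) and the Nodal inhibitors Lefty1 and Lefty2.

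In the Nodal, activin and BMP pathway 6 of 22 genes fell and 2 rose (median -0.19), against 18.6% and 19% of all genes. Among ligands and their inhibitors, Bmp4 read 6.50, 6.83 and 6.68 in Lin28a loss, against 8.78, 8.89 and 8.78 in wild type (-2.15 ± 0.10, adjusted p = 7.14e-09; 1 Lin28a-loss array passed detection). Lefty2 read 9.68, 10.18 and 10.66 in Lin28a loss, against 11.60, 11.67 and 11.72 in wild type (-1.49 ± 0.19), and Lefty1 fell by 1.47 ± 0.21. The Id genes, targets of BMP signalling, went both ways. Id4 fell by 1.37 ± 0.13 (1 Lin28a-loss array above background) and Id2 rose by 0.82 ± 0.14. Id1 and Id3 fell by 0.59 and 0.80, neither called under median scaling, and the BMP signal carrier Smad1, on chromosome 8, rose by 0.43 (not called there either).

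Of 20 Wnt pathway genes 7 fell and 3 rose, against 18.6% and 19% of all genes. The median was -0.27, and under median scaling 5 fell and 3 rose. Axin2, a target and feedback inhibitor, read 7.77, 7.76 and 8.20 in Lin28a loss, against 9.48, 9.50 and 9.53 in wild type (-1.60 ± 0.14, adjusted p = 2.79e-06). Sp5, a target encoding a zinc finger repressor, read 5.46, 5.77 and 6.64, against 7.74, 8.56 and 8.51 in wild type (-2.31 ± 0.26), with 2 of 3 Lin28a-loss arrays above background. The mesoderm factor T was at background in Lin28a loss and at least 1.85-fold lower (adjusted p = 5.62e-06), and the homeobox target Cdx1 fell by 0.73 ± 0.09. Of receptors, Fzd10 fell by 0.96 ± 0.11. Nkd2, an inhibitor of Dishevelled, rose by 0.85 ± 0.13, the secreted inhibitor Sfrp1 by 0.60 ± 0.08 and the ligand gene Wnt6 by 0.70 ± 0.09, with 1 wild-type array above background for Wnt6.

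Of 23 FGF-ERK genes tested 10 fell and 3 rose (median -0.31), against 18.6% and 19% of all genes. Under median scaling, however, 2 fell and 2 rose. Ier3, an immediate early gene of ERK, read 8.74, 8.96 and 8.51 in Lin28a loss, against 10.20, 10.31 and 10.23 in wild type (-1.51 ± 0.12, adjusted p = 1.09e-06). Spry4, a feedback inhibitor of the receptor, read 6.08, 6.25 and 6.08, against 7.33, 7.67 and 7.70 in wild type (-1.43 ± 0.15). The signal carriers Hras and Mapk3 fell by 0.40 and 0.39, neither called under median scaling. Dusp4, an ERK phosphatase on chromosome 8, rose by 0.67 ± 0.19, with 2 wild-type arrays above background. In the LIF-STAT3 pathway 2 of 15 genes rose and 4 fell, with Pramel7, which Stat3 induces, at least 1.63-fold higher (adjusted p = 1.73e-04) and Gbx2, another target, lower by 0.98 on average (-0.98 ± 0.18).

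Among reported let-7 targets falls outnumbered rises. Of 24 tested 10 fell and 2 rose, against 18.6% and 19% of all genes. The median was -0.20, and under median scaling 4 fell and 2 rose. Lin28a, the targeted gene itself, is among the 10 and among the 4. Nr6a1, the germ cell nuclear factor, read 8.57, 8.45 and 8.38 in Lin28a loss, against 9.47, 9.61 and 9.57 in wild type (-1.09 ± 0.09, adjusted p = 1.80e-06). Plagl2, a zinc finger factor, read 8.72, 8.86 and 9.16, against 9.60, 9.74 and 9.67 in wild type (-0.76 ± 0.11). Igf2bp1, which binds and stabilizes messenger RNAs, fell by 0.63 ± 0.16. Insr, the insulin receptor, went the other way, at 8.30, 7.99 and 8.26 in Lin28a loss, against 7.38, 7.28 and 7.22 in wild type (0.89 ± 0.12), as did the phosphate carrier Slc20a1 (0.71 ± 0.12). Among 23 genes of LIN28 and the microRNA machinery none rose and 5 fell. Besides Lin28a and Igf2bp1 these were the ubiquitin ligase Trim71 (-0.67 ± 0.10), Tarbp2 (-0.39) and Dicer1 (-0.27), the last 3 not called under median scaling; Drosha, which cuts primary microRNAs, differed by -0.15 (adjusted p = 0.309).

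The integrated stress response stood out among the 34 gene lists. It is the program by which phosphorylation of eIF2 favours translation of ATF4, whose targets serve amino acid supply and redox balance. Of 26 genes tested 18 rose and 2 fell (against 19% and 18.6% of all genes), with a median log2 fold change of 0.70. Under median scaling 14 rose and none fell. Without the brightest array of each group 18 rose and 2 fell. The list was chosen with earlier results of these samples known, so its direction is no independent evidence.

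Several of its transcription factors rose, while Cebpg, also on the list, was not among the genes that rose. Atf4 read 11.88, 12.06 and 11.99 in Lin28a loss, against 11.24, 11.44 and 11.33 in wild type (0.64 ± 0.09, adjusted p = 1.92e-04). Atf5 read 9.22, 9.32 and 9.17, against 8.22, 8.32 and 8.22 in wild type (0.98 ± 0.09, adjusted p = 2.03e-06). Ddit3, which encodes CHOP, read 10.47, 10.11 and 9.0, against 8.80, 8.65 and 8.44 in wild type (1.23 ± 0.31), so the third Lin28a-loss array, the brightest by raw signal, lay closest to wild type. Nupr1, a small stress-induced chromatin protein, read 12.72, 12.63 and 12.35, against 11.33, 11.01 and 10.90 in wild type (1.49 ± 0.16, adjusted p = 1.37e-05). Cebpb rose by 0.71 ± 0.11 and Jdp2 by 0.83 ± 0.25 (Jdp2 not called under median scaling). Atf3, at background in wild type, rose by 0.77 ± 0.16; its signal gives no bound on the fold.

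Effectors followed. Gdf15, a secreted stress hormone, read 9.09, 8.92 and 8.63 in Lin28a loss, against 7.46, 7.39 and 7.29 in wild type (1.5 ± 0.12, adjusted p = 7.89e-07). Chac1, which degrades glutathione, read 11.18, 11.47 and 11.58, against 10.07 at the lowest and 10.22 at the highest in wild type (1.28 ± 0.17). Herpud1, of endoplasmic reticulum-associated degradation, read 10.38, 10.25 and 10.56, against 9.46, 9.19 and 9.20 in wild type (1.11 ± 0.11). In each of these the groups lie apart. Gdf15 and Herpud1 are the 2 members placed on chromosome 8, whose genes as a whole had a median of 0.24, and the part of that shift in their rise was not tested. Trib3, a pseudokinase that inhibits AKT and ATF4, rose by 0.82 ± 0.13, the hormone gene Fgf21 was at least 1.63-fold higher (adjusted p = 1.33e-04), and the mTORC1 inhibitor Ddit4 rose by 0.70 ± 0.17.

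The biosynthetic branch was uneven. Aldh18a1, the first enzyme of proline synthesis, rose by 0.84 ± 0.11 and Mthfd2, of mitochondrial folate metabolism, by 0.66 ± 0.08. Asns, asparagine synthetase, rose by 0.22 ± 0.08, not called under median scaling. For the serine synthesis enzymes Psat1 and Phgdh the differences were 0.52 and 0.09 (adjusted p = 0.132 and 0.65). Ppp1r15a, whose product directs dephosphorylation of eIF2, fell by 0.59 ± 0.09 and the growth arrest gene Gadd45a by 0.47 ± 0.12, neither called under median scaling. Of 14 endoplasmic reticulum chaperone and unfolded protein response genes 1 rose and 2 fell, and the transcription factor gene Xbp1 read 10.26, 10.26 and 10.23 in Lin28a loss, against 10.75, 11.20 and 11.26 in wild type (-0.82 ± 0.13).

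**Figure D2:**
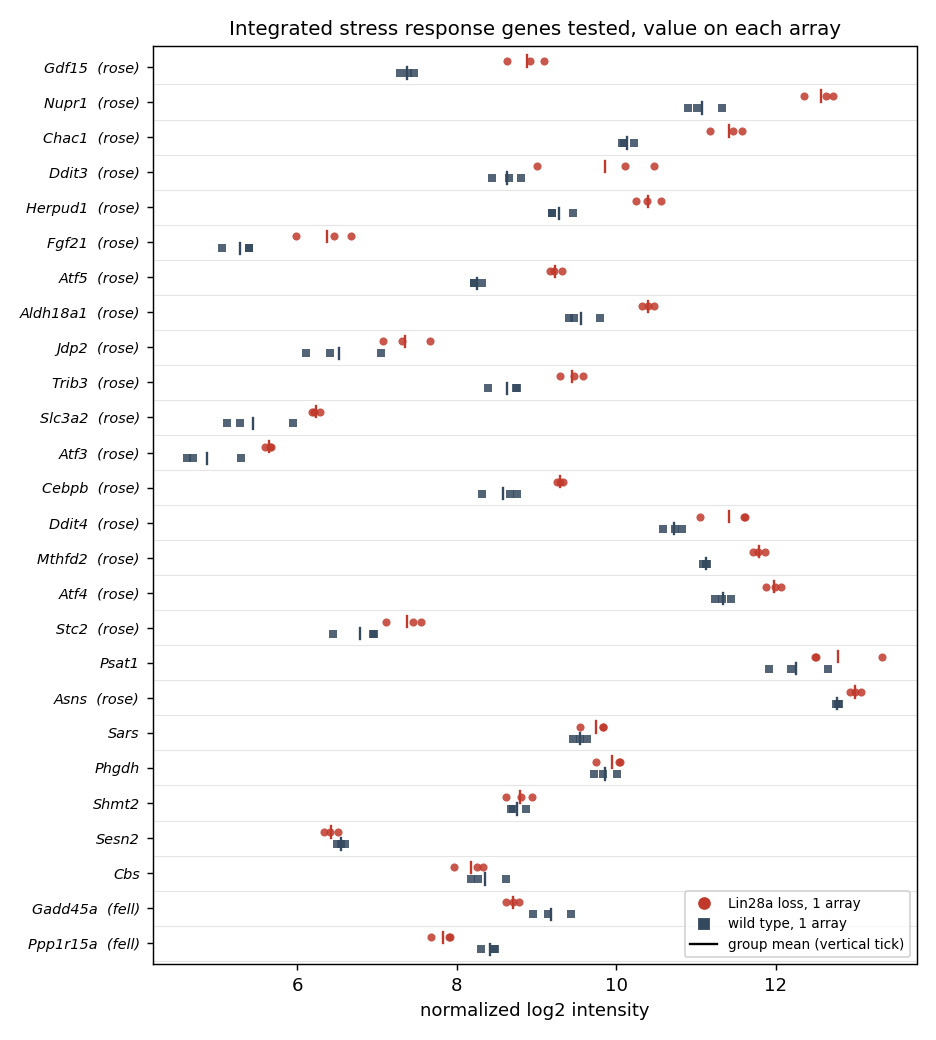
Normalized log2 intensity (horizontal) on each array for the 26 integrated stress response genes tested, ordered by fold change, Lin28a loss (red circles) above wild type (dark squares), with a vertical tick at each group mean; rose and fell mark adjusted p under 0.05. The rows from Gdf15 down to Stc2 lie to the right in Lin28a loss, and Gadd45a and Ppp1r15a to the left.

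Promoters were searched for the composite element bound by CHOP or ATF4 with C/EBP proteins, spelled TGATGNAA and read on both strands, since these factors are members of the list. Of 31 list genes with a RefSeq promoter window around a start (GRCm38.p6), 11 held the letters, as did 8 of the 18 that rose, against 4.51% of 27025 genes with such a window. A gene with several starts counts if any window matched. The list was made of genes of the program that ATF4 drives, so a share above that of all genes may follow from its choice. The share is thus no evidence on these samples. The windows of 4 genes that rose are shown, with the match in capitals; in all 4 it lies on the opposite strand, so the capitals are the reverse complement of the letters searched. A match describes the letters and not a bound site.
Chac1 (chr2:119350992-119351291, plus strand): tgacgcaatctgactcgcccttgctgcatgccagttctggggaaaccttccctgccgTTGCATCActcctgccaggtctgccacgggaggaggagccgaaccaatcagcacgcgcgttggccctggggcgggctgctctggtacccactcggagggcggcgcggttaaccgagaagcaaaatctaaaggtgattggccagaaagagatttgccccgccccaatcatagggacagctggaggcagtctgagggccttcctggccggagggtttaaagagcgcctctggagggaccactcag
Trib3 (chr2:152344011-152344310, minus strand): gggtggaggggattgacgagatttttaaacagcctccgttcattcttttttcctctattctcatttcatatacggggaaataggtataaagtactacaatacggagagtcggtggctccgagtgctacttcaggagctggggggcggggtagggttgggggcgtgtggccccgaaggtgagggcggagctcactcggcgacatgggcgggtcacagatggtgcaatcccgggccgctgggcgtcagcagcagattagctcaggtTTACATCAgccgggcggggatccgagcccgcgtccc
Nupr1 (chr7:126625421-126625720, minus strand): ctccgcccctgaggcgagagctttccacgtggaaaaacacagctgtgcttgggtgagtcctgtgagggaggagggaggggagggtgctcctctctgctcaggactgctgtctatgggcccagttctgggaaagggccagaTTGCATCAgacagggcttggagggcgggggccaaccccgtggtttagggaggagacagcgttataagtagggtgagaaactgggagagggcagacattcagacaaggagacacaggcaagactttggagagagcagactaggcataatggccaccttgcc
Herpud1 (chr8:94386179-94386478, plus strand): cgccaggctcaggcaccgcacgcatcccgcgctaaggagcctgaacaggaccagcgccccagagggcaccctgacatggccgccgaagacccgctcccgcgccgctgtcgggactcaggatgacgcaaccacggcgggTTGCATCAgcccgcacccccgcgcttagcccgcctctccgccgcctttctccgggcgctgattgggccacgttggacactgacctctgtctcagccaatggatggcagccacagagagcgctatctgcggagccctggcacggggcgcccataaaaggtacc
Counted from the start, the matches are centred at base -106 in Nupr1, -108 in Herpud1, -189 in Chac1 and 18 in Trib3.

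Of 16 amino acid transporters 8 rose and 1 fell (median 0.33; 3 rose and none fell under median scaling). Slc1a1, a glutamate and cysteine carrier, read 6.89, 6.64 and 6.91 in Lin28a loss, against 5.62, 5.14 and 4.89 in wild type (1.59 ± 0.16, adjusted p = 7.17e-06), with 2 wild-type arrays above background. Slc1a3, another glutamate carrier, rose by 0.72 ± 0.12, and Slc3a2, the heavy chain of several exchangers and also on the stress list, by 0.78 ± 0.17 (1 wild-type array above background). Of 28 aminoacyl-tRNA synthetases 6 rose and 1 fell, a share of rises near the 19% of all genes. The largest rise was that of Lars2, the mitochondrial leucyl-tRNA synthetase, at 8.71, 8.71 and 8.93 in Lin28a loss, against 7.94, 7.84 and 7.86 in wild type (0.90 ± 0.11), then Aars2, the mitochondrial alanyl enzyme (0.59 ± 0.11).

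Among lysosomal genes rises outnumbered falls. Of 31 tested 12 rose and 5 fell, against 19% and 18.6% of all genes. The median was 0.26, and under median scaling 4 rose and 2 fell. Lamp1, Mcoln1 and Atp6v0d1, 3 of the risers, lie on chromosome 8. Ctsh, a cathepsin, read 6.57, 6.42 and 6.08 in Lin28a loss, against 5.30, 5.04 and 5.43 in wild type (1.10 ± 0.14). Lamp1, a major membrane protein of lysosomes, rose by 0.76 ± 0.14, the proton pump subunit Atp6v1h by 0.67 ± 0.11 and Scarb2, a lysosomal membrane receptor, by 0.65 ± 0.11. Another cathepsin, Ctsl, moved in the opposite direction, at 5.67, 5.36 and 5.66, against 7.73, 7.59 and 7.73 in wild type (-2.12 ± 0.11, adjusted p = 1.48e-08; 2 Lin28a-loss arrays above background). The autophagosome gene Map1lc3a fell by 0.74 ± 0.11.

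Redox and iron genes went both ways. Of 25 glutathione and NRF2 genes 4 rose and 7 fell (4 and 3 under median scaling), against 19% and 18.6% of all genes. Gss, glutathione synthetase, read 6.78, 6.76 and 6.52 in Lin28a loss, against 8.34, 8.48 and 8.24 in wild type (-1.66 ± 0.12, adjusted p = 4.08e-07). Gpx4, which reduces lipid peroxides, fell by 0.81 ± 0.12. Glutathione transferases rose in part, Gsto1 at 11.76, 11.71 and 11.68, against 10.52 at the highest in wild type (1.37 ± 0.12), Gstp1 by 0.87 ± 0.15 and Gstm5 by 0.64 ± 0.13, while Gsta4 fell by 0.72 ± 0.11. Hmox1, heme oxygenase on chromosome 8, rose by 0.90 ± 0.13. Of 13 iron genes 2 rose and 4 fell, with the iron exporter Slc40a1 at 5.99, 5.80 and 6.26 in Lin28a loss, against 7.82, 7.72 and 7.81 in wild type (-1.77 ± 0.17).

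The energy and sterol lists held both rises and falls. Pdk1, the kinase that shuts pyruvate dehydrogenase, read 9.74, 9.63 and 9.65 in Lin28a loss, against 10.73, 10.77 and 10.83 in wild type (-1.10 ± 0.08, adjusted p = 4.36e-07). It was the 1 gene of 22 in the tricarboxylic acid cycle list still called under median scaling, where 3 rose and 4 fell otherwise. Of 17 hypoxia targets 3 rose and 5 fell (47.1% called, against 37.5% of all genes). The glycolytic enzyme Eno1 fell by 0.84 ± 0.10, and Ankrd37, on chromosome 8, rose by 0.93 ± 0.12. In cholesterol synthesis 5 of 18 genes rose and 4 fell (50% called). Tm7sf2, a sterol reductase, was at -0.96 ± 0.11 and the oxidoreductase Hsd17b7 at 0.71 ± 0.12 (not called under median scaling). Among the rises Mvk (0.50 ± 0.11) and Srebf2 (0.51 ± 0.17) kept their call under median scaling.

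Of 29 SR and hnRNP splicing factors 11 fell, 18 were not called and none rose (median -0.21), but 2 fell under median scaling: Hnrnpr, at 5.81, 5.46 and 5.98 in Lin28a loss, against 6.91, 7.01 and 7.11 in wild type (-1.26 ± 0.13; 2 Lin28a-loss arrays above background), and Srsf5 (-0.62 ± 0.12). Of 23 cytosolic chaperones 6 fell and 17 were not called, and none of the 6 kept its call under median scaling. Over all genes 18.6% fell and 19% rose. DNA methylation and polycomb genes had 9 falls and 3 rises among 28 (3 and 0 under median scaling), with the histone-binding Rbbp7 at -0.92 ± 0.12, the polycomb reader Cbx7 at -0.75 ± 0.09 and Mbd3, of the NuRD complex, at -0.74 ± 0.15.

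Among cell cycle genes 10 fell and 3 rose of 37 in DNA replication, 5 and 2 of 23 in mitosis and 6 and 2 of 22 among G1 regulators, where 18.6% and 19% of all genes fell and rose. Under median scaling the falls numbered 2, 1 and 2. Cdkn2b, an inhibitor of CDK4 and CDK6, read 7.53, 7.31 and 7.68 in Lin28a loss, against 6.33, 6.33 and 6.44 in wild type (1.14 ± 0.10, adjusted p = 2.49e-06). Max, the partner of MYC, read 5.27, 5.78 and 5.63, against 6.88, 6.91 and 7.10 in wild type (-1.41 ± 0.14; 2 Lin28a-loss arrays above background). Pttg1, the securin of sister chromatid separation, fell by 1.03 ± 0.17 and Ccne1, cyclin E1, by 0.82 ± 0.16. The clamp loader subunit Rfc3 fell by 0.72 ± 0.17. Of 21 apoptosis genes 5 rose and 5 fell, with Casp9, the initiator caspase of the mitochondrial route, at 7.78, 7.66 and 7.81 in Lin28a loss, against 6.35, 6.34 and 6.52 in wild type (1.34 ± 0.09; 2 Lin28a-loss arrays passed detection), and the BH3-only genes Bik and Bcl2l11 at 0.85 ± 0.16 and -0.69 ± 0.10.

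In translation 4 of 38 genes rose and 7 fell, led by Eif5 (-0.77 ± 0.12), so 28.9% were called, against 37.5% of all genes. In the proteasome 3 of 32 rose and 3 fell, or 18.8% called. Interferon-inducible subunits were among the proteasome changes. Psmb9, on no wild-type array above background, had a bound of at least 2.67-fold higher (adjusted p = 1.85e-08), Psmb10, on chromosome 8, rose by 0.75 ± 0.17, and the activator Psme2 fell by 0.70 ± 0.17. The interferon list as a whole had 9 falls and 4 rises among 16, against 18.6% and 19% of all genes. Its median was -0.30, with 5 falls and 3 rises under median scaling. Ddx58, the RNA sensor RIG-I, read 6.41, 6.55 and 6.88 in Lin28a loss, against 7.83, 7.72 and 7.98 in wild type (-1.23 ± 0.16), the regulator Irf1 fell by 0.80 ± 0.08 and the membrane protein Ifitm1 by 0.75 ± 0.10.

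Matrix and adhesion genes had more rises than falls, with 9 and 4 among 28 matrix genes and 8 and 3 among 26 adhesion genes. Over all genes 19% rose and 18.6% fell. Under median scaling the counts were 5 and 1 for matrix and 4 and 1 for adhesion genes. Their medians were 0.15 and 0.12, or 0.05 and 0.07 among genes above background on all 6 arrays. Sparc, a collagen-binding glycoprotein, read 10.21, 10.12 and 9.97 in Lin28a loss, against 8.74, 8.69 and 8.68 in wild type (1.40 ± 0.08, adjusted p = 6.85e-08). The basement membrane collagen gene Col4a2 read 8.13, 8.17 and 7.83, against 7.25, 6.49 and 6.79 in wild type (1.20 ± 0.17); it, its neighbour Col4a1 (1.18 ± 0.21, not called under median scaling) and the gelatinase gene Mmp2 (0.96 ± 0.14) are on chromosome 8. The secreted phosphoprotein gene Spp1 rose by 0.95 ± 0.14, Icam1 by 0.83 ± 0.14 and the integrin gene Itgb5 by 0.79 ± 0.17. Fn1 fell by 0.77 (not called under median scaling) and the surface antigen gene Ly6e by 1.66 ± 0.16. Of 28 actin cytoskeleton genes 8 fell and 1 rose, led by Acta2, smooth muscle actin, at 5.57, 5.24 and 5.26, against 7.39, 7.37 and 7.32 in wild type (-2.01 ± 0.13, adjusted p = 2.30e-07).

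**Figure D3:**
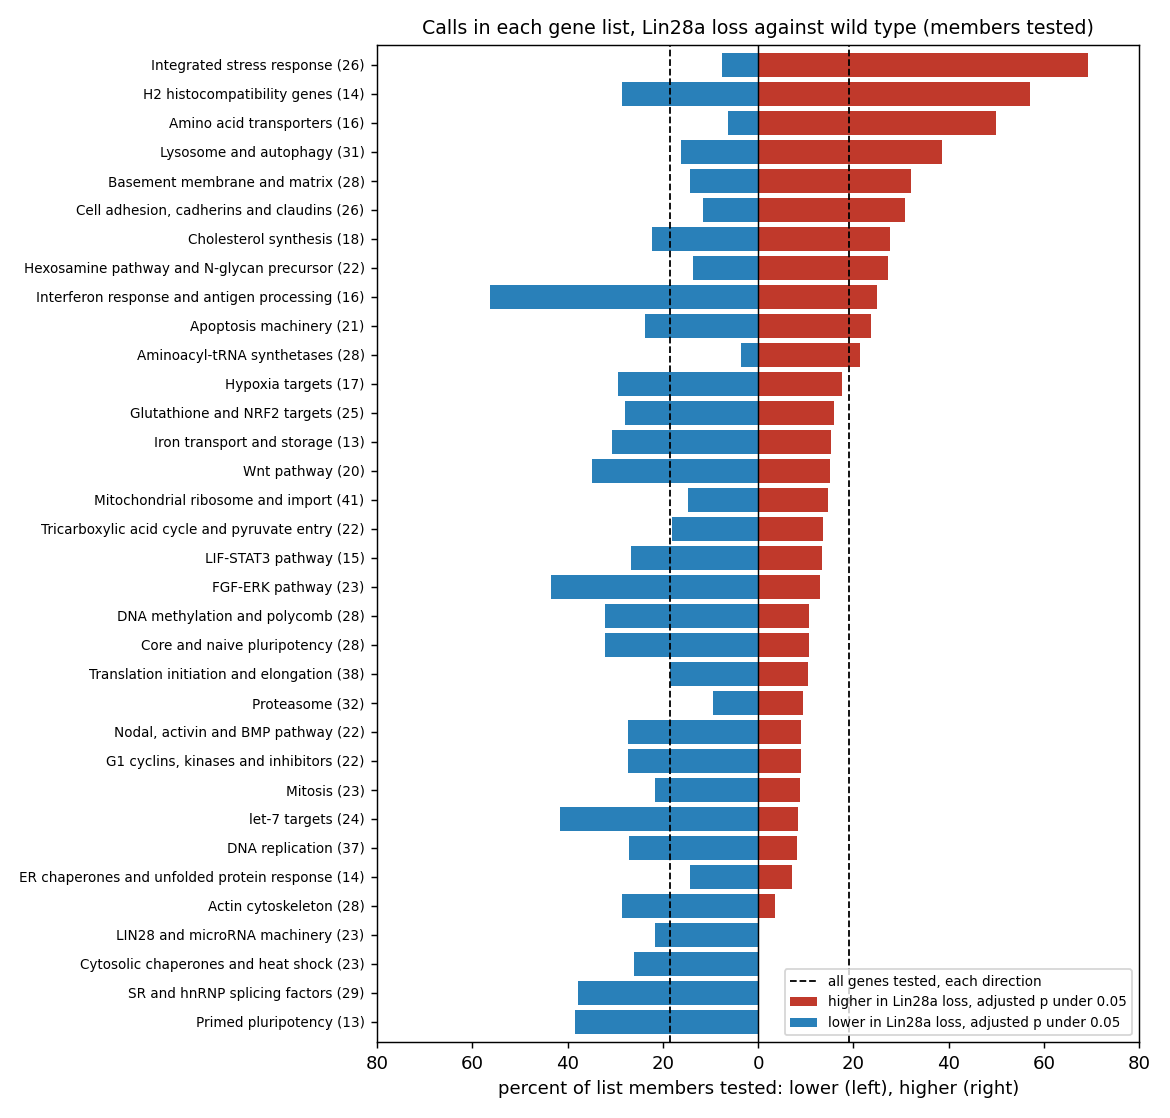
Percent of tested members called higher (right, red) or lower (left, blue) in Lin28a loss for each of 34 gene lists, with the number tested in parentheses and dashed lines at 19% and 18.6%, the shares over all 9449 genes. Integrated stress response genes have the longest red bar, with 18 of 26, and interferon and antigen processing genes the longest blue one, with 9 of 16.

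Some H2 histocompatibility genes changed by large amounts. Of 14 tested 8 rose, 7 of them at least 2-fold, and 4 fell (8 and 2 under median scaling). Of all genes 19% rose and 18.6% fell. Among the 7 above background on all 6 arrays 3 rose and 2 fell, with a median of 0.06, against 0.94 over the 14. A gene at background in wild type was tested only through Lin28a loss, which favours a rise. H2-Bl, a class Ib gene, read 9.14, 9.08 and 8.87 in Lin28a loss, against 4.88, 4.58 and 4.84 in wild type, at least 10.3-fold higher (adjusted p = 5.04e-10). H2-DMb1, which helps load class II molecules, read 7.71, 7.84 and 7.53, against 4.55, 4.62 and 4.53 in wild type, at least 4.09-fold higher (adjusted p = 2.34e-10). The class II genes H2-Eb1 and H2-Ab1 rose by 1.92 ± 0.16 and 1.48 ± 0.19, and the class I gene H2-D1 by 1.46 ± 0.13. By contrast H2-Q6 read 5.07, 4.97 and 4.86 in Lin28a loss, against 7.27, 7.54 and 7.26 in wild type, at least 3.81-fold lower (adjusted p = 7.14e-09), and H2-K1, the other classical class I gene, fell by 0.49 ± 0.13 (not called under median scaling). H2 genes are near-identical copies that vary between strains, so which gene each signal came from is uncertain.

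These genes share a stretch of chromosome 17 with other large changes. Between Wdr46 and Ubd, bounds set after the values were seen, 83 genes were tested, of which 20 rose and 22 fell. At least 2-fold changes made up 20.5%, against 5.06% of the 356 other genes that RefSeq places on the chromosome. Wdr46 and Ubd themselves changed by large amounts, so this contrast follows in part from the choice of bounds and is no evidence. Abhd16a, a lipase, read 9.71, 9.43 and 9.62 in Lin28a loss, against 5.22, 5.61 and 5.23 in wild type (at least 15.2-fold higher, adjusted p = 4.62e-10). Wdr46, of ribosome assembly, read 8.63, 9.12 and 8.72, against 4.81, 4.90 and 4.99 in wild type, and the ubiquitin-like gene Ubd read 7.92, 7.88 and 7.73, against 4.78, 5.23 and 5.19 in wild type. All 3 were also above background on every array of Lin28b loss and on none of double loss. Ier3 and Psmb9, described with their lists, also lie in this stretch, and its part in their changes was not tested.

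Chromosome 8 differed from the others as a whole. The 365 genes that the array annotation places there had a median log2 fold change of 0.24, against -0.03 for the other autosomes; 152 rose and 23 fell (41.6% and 6.3%), and 75.1% lay above 0, against 46.0% elsewhere. Medians of the other chromosomes ran from -0.08 to 0.01. Each Lin28a-loss array showed it, with medians of 0.26, 0.29 and 0.23 against the wild-type mean, while single wild-type arrays against the remaining wild-type arrays gave -0.01, 0.01 and 0.02. Neighbouring genes are not independent, and no test was made.

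The shift ran along most of the chromosome. In 10 consecutive stretches of 36 genes the medians were 0.36, 0.26, 0.31, 0.28, 0.24, 0.41, 0.47, 0.25, 0.00 and 0.02, so the last 2 stretches did not share it. The largest rises there, by the same choice, were of Adam32, a sperm and testis metalloprotease-like gene, at 7.5, 7.62 and 7.24 in Lin28a loss, against 4.64, 4.65 and 4.68 in wild type (at least 3.46-fold higher, adjusted p = 4.68e-10), and Kctd19, a meiosis gene, at 8.35, 7.41 and 7.02, against 5.03, 4.96 and 4.87 in wild type (at least 3.80-fold). Kcnu1, a sperm potassium channel, rose by 2.17 ± 0.14 (1 wild-type array above background) and Ccdc113, of cilia, by 2.12 ± 0.20. Zfp42 had the lowest value of the 23 genes that fell there. In double loss against Lin28b loss the median of these genes was -0.33.

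**Figure D4:**
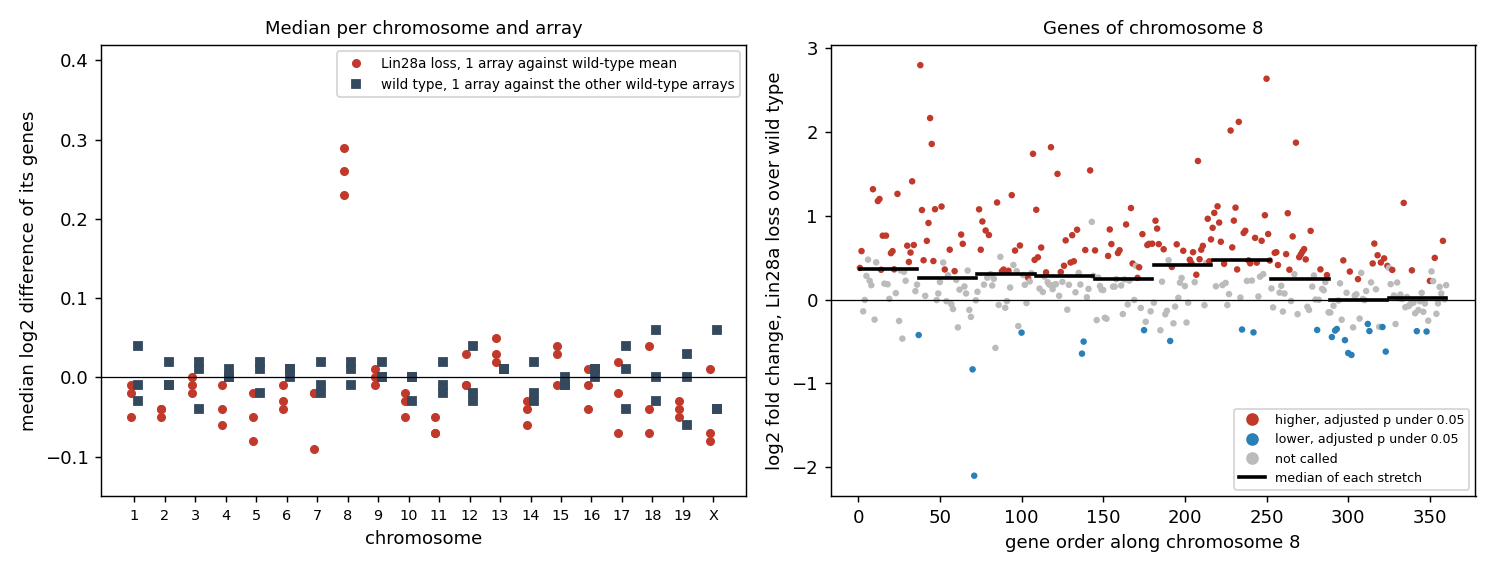
Left, median log2 difference of the genes of each chromosome, for single Lin28a-loss arrays against the wild-type mean (red circles) and single wild-type arrays against the remaining wild-type arrays (dark squares); chromosome 8 alone has red circles at 0.23 to 0.29. Right, log2 fold change of each gene in order along chromosome 8, coloured by call, with black bars at the median of each stretch, which lie above 0 up to the eighth stretch.

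Loss of Lin28a can also be compared in lines labelled as lacking Lin28b, from double loss against Lin28b loss, which uses the 6 other arrays. These lie within the other chip, and line and genotype cannot be told apart there either. There too about as many genes were called, 3405 (36%). Across the 9449 genes, which are not independent replicates, the 2 effects had a Pearson r of 0.01. Of 1794 genes that rose in Lin28a loss 444 (24.7%) were higher in double loss too and 429 (23.9%) lower, against 16.7% and 19.3% of all genes. Of 1754 that fell 374 (21.3%) were lower and 349 (19.9%) higher. For rises of at least 2-fold the same-way share was 36.8% and the opposite share 17.7%, and for falls both were 29.5%. The difference between the effects passed for 3576 genes (37.8%), 142 of them by at least 4-fold (1.5%).

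Some genes moved the same way in both. Tomm22 was 4.54 higher on the log2 scale in double loss than in Lin28b loss. Calr4 was above background on every array of wild type and of Lin28b loss and on none of Lin28a loss or double loss. Fthl17f, a ferritin-like gene of the X chromosome, read 9.16, 8.83 and 8.75 in Lin28a loss, against 6.72, 6.88 and 6.85 in wild type (2.10 ± 0.13), and had a log2 fold change of 1.79 ± 0.13 in double loss over Lin28b loss. Csrnp1, a nuclear protein induced by axin, had 1.65 ± 0.14 and 1.48 ± 0.14, and Tex19.2, of germ cells, 1.60 ± 0.15 and 1.60 ± 0.15. Among falls in both, Nr6a1 had -1.09 and -1.0, Krt8 -0.79 and -0.72, Cort, the neuropeptide cortistatin, -1.54 and -1.27, and Ier3 -1.51 and -1.14. Of the 5 primed genes that fell, 4 fell in both.

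Other responses turned round or were not shared. Zfp42, 2.10 lower in Lin28a loss, was 1.92 higher in double loss than in Lin28b loss, so that the difference between the effects was 4.03 (adjusted p = 1.93e-09). Olig1 was above background on all arrays of Lin28a loss and none of wild type, and on none of double loss and all of Lin28b loss. Of the 7 Wnt genes that fell 4 were higher in double loss than in Lin28b loss, Axin2 by 1.06 and Sp5 by 1.27 among them. The stress response was mixed: of its 18 genes that rose 5 were higher there and 3 lower, Ddit4 at -1.97 among the latter. Over the 26 stress response genes tested 9 were higher there and 3 lower, with a median of 0.17. Uap1 and Meg3, at -3.12 and -2.84 in Lin28a loss, differed by -0.17 and 0.03 in the other comparison (adjusted p = 0.471 and 0.926).

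**Figure D5:**
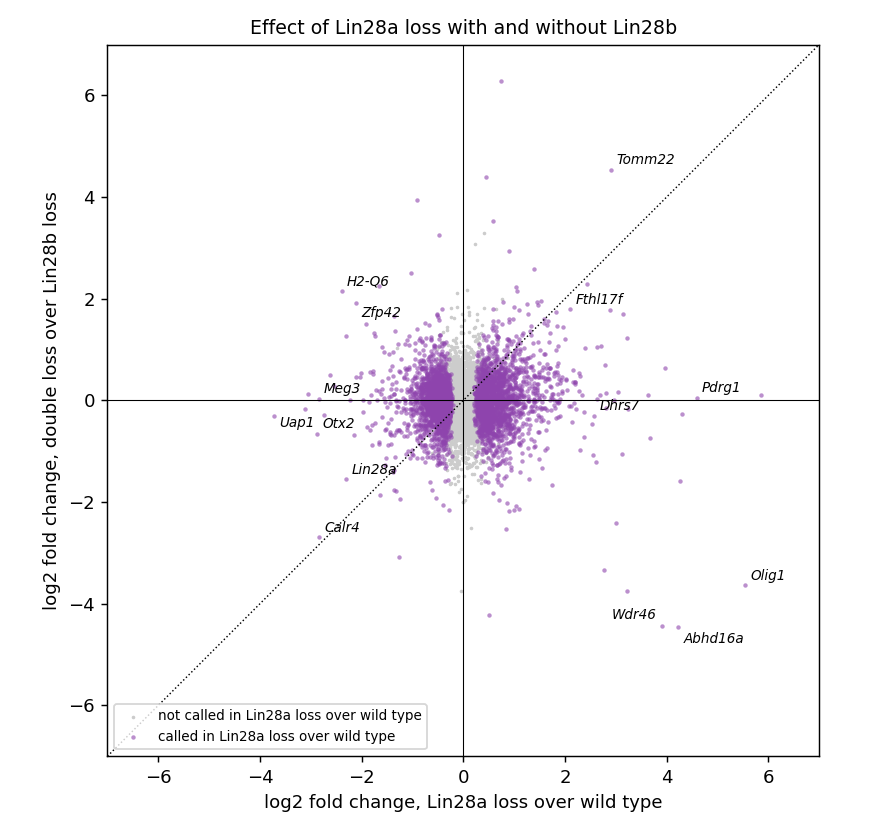
Log2 fold change of each of 9449 genes in Lin28a loss over wild type (horizontal) and in double loss over Lin28b loss (vertical), with genes called in the first comparison in purple, the others in grey and a dotted line where both effects would be equal. Tomm22 and Calr4 lie on the same side of 0 on both axes, Olig1, Abhd16a and Wdr46 far from the line at the lower right, and the cloud has no slope (r = 0.01). Signals at background are plotted as measured, so folds of such genes are not exact.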

How the data were processed

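Total RNA of each sample was hybridised to 1 Illumina mouse WG-6 BeadChip array. The deposited gene-level table holds, per the file headers, a mean bead intensity per gene on a linear scale without normalization, exported from GenomeStudio (GSGX 1.9.0). It also holds a detection p-value per gene, which per the file headers belongs to the same export. Genome build and annotation are not given in the sources used here. A deposited probe-level intensity table was not used, since no table names its probes, nor was a normalized table, whose numbered columns name no sample. In all, 60 columns of per-sample values were left out.

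Detection p-values of 23306 single-probe entries (936 inferred control bead types) served to estimate background per array. Signals were corrected by normexp, 16 was added, log2 was taken and the 12 arrays were quantile normalized (limma 3.58.1, R 4.3.3). Genes with detection p under 0.01 on all 3 arrays of either group were tested, 9865 entries, of which 416 second entries of a symbol were dropped. lmFit and eBayes used group means over 12 arrays, with Benjamini-Hochberg adjustment over 9449 genes. On simulated data of that size the fit was checked before use. Array precision is limited by 3 arrays per group, and intensities give no counts.

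Names came from RefSeq (GRCm38.p6): 18045 entries through Entrez identifiers, 2073 more through symbols, a further 2663 through synonyms, while 8073 kept the file's name. Chromosomes are those of the array annotation, which leaves many genes blank, and gene order is that of RefSeq. The members, gene lists and named genes were chosen with earlier results of these data known. The rule named Lin28a and Lin28b, the 10 largest rises and falls among called genes above background on all 6 arrays with no overlap and the same call under median scaling, the 6 largest bounds each way, up to 2 rises and 2 falls per list, and the 5 largest changes on the chromosome farthest from the others, leaving out predicted genes and clone names. Further genes were chosen after their values were seen, mainly those whose call held under median scaling and without each array. Replicate numbers did not pair the samples (r of deviations -0.213, 0.452 and -0.23). Figures used matplotlib 3.10.9 under Python 3.11.15.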

Additional observations from a re-analysis of the deposited data

Results flagged for a closer look

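For 41 of the named genes, double loss over Lin28b loss differed by at least 4-fold from Lin28a loss over wild type. This is by the limma test of the difference itself, with adjusted p under 0.05, and 1.5% of all 9449 genes pass both. Every group is a single line, so such a difference cannot be assigned to Lin28b status rather than to line. Each value is the log2 fold change of double loss over Lin28b loss less that of Lin28a loss over wild type. Where a group was not above background the value is a difference of measured signals and not the size of an effect. Olig1, Abhd16a, Wdr46, H2-Bl and H2-DMb1 were above background on no array of double loss or wild type. Pdrg1, Obox6, Psmb9, Adam32 and Kctd19 were above background on no array of double loss, Lin28b loss or wild type, so no effect can be read for them in cells that lack Lin28b. Sfi1, H2-Q6 and Sh3rf2 were on no Lin28a-loss array above background, and Lars2 and Sh3rf2 on no Lin28b-loss array. The genes had in part been chosen for a large change in Lin28a loss over wild type, which enters the difference.

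The difference was positive for 20 genes. It was 4.54 for H2-Q6, 4.03 for Zfp42, 3.91 for Ly6e, 3.58 for Sp5, 3.54 for Pttg1, 3.43 for Sfi1 and 3.13 for Ccdc3. It was 2.95 for Uap1, 2.88 for Meg3, 2.83 for Sh3rf2, 2.65 for Axin2, 2.59 for Ctsl, 2.54 for Acta2, 2.39 for Cd59a, 2.29 for Slc40a1, 2.23 for Otx2, 2.06 for Srsf3, 2.05 for Gadd45a, 2.04 for Lars2 and 2.04 for Ddx58.

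The difference was negative for 21 genes. It was -9.19 for Olig1, -8.69 for Abhd16a, -8.36 for Wdr46, -5.84 for H2-Bl, -4.54 for Pdrg1, -4.19 for H2-DMb1, -3.33 for Obox6, -3.26 for Lockd and -3.10 for Psmb9. It was -2.94 for Adam32, -2.87 for Dhrs7, -2.66 for Ddit4, -2.61 for Kctd19, -2.60 for Fez1, -2.57 for Sgpp1, -2.39 for Camk2n1, -2.32 for Sparc, -2.23 for Ccdc113, -2.10 for Sdc4, -2.10 for Alg8 and -2.09 for Fastkd3.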

How the results depend on the processing

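With median scaling 1374 genes were called in Lin28a loss against wild type, 972 higher and 402 lower, 1057 in double loss against Lin28b loss and 1388 for the difference between the effects; the cause was not tested. At least 2-fold calls numbered 554 with median scaling, 292 with an offset of 50, 304 without background correction and 297 among genes above background on all 6 arrays, where fewer genes were tested. Leaving out 1 array at a time gave 2871 to 3712 calls, 1521 to 1927 higher and 1350 to 1831 lower, and 479 to 603 of at least 2-fold. The chromosome 8 median was then 0.23 to 0.27 and the Lin28a change -2.36 to -2.26. With the replicate number as a block 3627 genes were called, and the numbers did not pair the samples. Array weights gave 5070 calls. A fit of only the 6 arrays compared gave 2722, with 1466 higher and 1256 lower. For the 144 named genes, 2281 of 2396 values under alternatives kept direction and side of the threshold, 115 were no longer called, 46 of them under median scaling, and none reversed. The authors' probe-level values were not run, as no table names their probes. Dim signals limit folds to bounds.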
